A study of Mus musculus with 20 samples.

Results

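The organic anion transporters of the kidney proximal tubule were examined in mice given puberulic acid, a tropolone made by Penicillium moulds. The 10 genes are Slc22a6, Slc22a7, Slc22a8, Slc22a12, Slc22a13, Slc22a22, Slc22a28, Slc22a30, Slco1a1 and Slco4c1, out of 55822 genes in the deposited table. They were chosen by symbol, as carriers of this kind already seen to be low after puberulic acid in these samples. The difference between the groups is therefore a description of the chosen genes, and it is given with no p-value for them.

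Poly(A) RNA of whole kidney was sequenced from male C57BL/6J mice aged 8 weeks, dosed daily over 6 days and killed on day 7. The control group, with 5 samples, received PBS, the vehicle. The puberulic acid group, with 5 samples, received 1 mg of the compound per day. The labels describe 20 samples in 4 groups, and the remaining 10 samples, from the supplement Choleste-Help (lots called normal and toxic), were not analysed here because the names of their columns do not show the lot. The route is given as oral in one label and as gavage or intraperitoneal injection in another. Nothing in the labels states that each sample came from a separate animal. The p-values given for other genes set the group difference against the spread between these samples, which need not be separate animals. The libraries held between 18409877 and 24705587 estimated counts, with scaling factors of 0.827 to 0.848 in controls and 1.17 to 1.26 after puberulic acid. In whole kidney, fewer cells of a type and less RNA per cell cannot be told apart.

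Proximal tubule cells take organic anions such as drugs, urate, hormone conjugates and uraemic solutes from the blood and pass them into the urine. Carriers on the blood side exchange these anions for dicarboxylates such as alpha-ketoglutarate, whose gradient is kept up by sodium-coupled dicarboxylate uptake and, behind it, by the sodium pump. Other carriers on the urine side release the anions or take some of them, such as urate and nicotinate, back into the cell. Hepatocyte nuclear factor HNF4 is a known activator of many of these genes.

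Promoters are shown first for the 4 members that lie in 1 cluster on chromosome 19, because they hold 4 of the 6 lowest puberulic acid to control ratios. Each window runs 5′ to 3′ in the direction of the gene, from 250 bases before the start to 50 after it, in RefSeq on build GRCm38.p6. Capitals mark a match to the HNF4 core CAAAGTCCA with at most 1 mismatch, or to the direct repeat AGGTCANAGGTCA, the form bound by HNF4 and other nuclear receptors, with at most 3 mismatches. Both strands were searched, and the motifs can overlap. The window of Slc22a8 is chr19:8592932-8593231, plus strand, that of Slc22a6 is chr19:8617746-8618045, plus strand, that of Slc22a30 is chr19:8405056-8405355, minus strand, and that of Slc22a28 is chr19:8131933-8132232, minus strand.
Slc22a8: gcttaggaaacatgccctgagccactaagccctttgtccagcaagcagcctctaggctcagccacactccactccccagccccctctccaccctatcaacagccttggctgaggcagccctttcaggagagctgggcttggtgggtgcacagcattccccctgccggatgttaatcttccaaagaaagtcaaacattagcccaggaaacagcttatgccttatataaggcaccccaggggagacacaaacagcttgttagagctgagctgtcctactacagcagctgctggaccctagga
Slc22a6: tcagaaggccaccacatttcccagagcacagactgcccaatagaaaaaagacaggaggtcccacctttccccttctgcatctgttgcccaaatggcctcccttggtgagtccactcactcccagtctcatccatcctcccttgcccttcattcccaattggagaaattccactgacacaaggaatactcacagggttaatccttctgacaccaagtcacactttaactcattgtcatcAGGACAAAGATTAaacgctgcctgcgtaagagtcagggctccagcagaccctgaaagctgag
Slc22a30: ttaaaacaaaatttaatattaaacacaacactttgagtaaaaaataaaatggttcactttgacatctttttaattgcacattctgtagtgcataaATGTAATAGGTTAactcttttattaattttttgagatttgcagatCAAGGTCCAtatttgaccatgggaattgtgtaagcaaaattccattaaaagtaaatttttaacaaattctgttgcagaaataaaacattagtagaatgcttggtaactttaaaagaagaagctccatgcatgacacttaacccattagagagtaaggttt
Slc22a28: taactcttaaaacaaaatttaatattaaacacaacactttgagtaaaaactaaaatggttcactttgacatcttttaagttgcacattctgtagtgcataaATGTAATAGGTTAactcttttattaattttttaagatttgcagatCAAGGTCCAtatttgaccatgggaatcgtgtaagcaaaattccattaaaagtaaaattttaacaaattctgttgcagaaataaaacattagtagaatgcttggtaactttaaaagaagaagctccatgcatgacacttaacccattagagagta
The core was found 104 to 96 bases before the start of Slc22a28 and 110 to 102 bases before that of Slc22a30, and the repeat 149 to 137 and 155 to 143 bases before them. The windows of these relatives were 94.1% identical, and the next most alike pair of members' windows 48.9%. In Slc22a6 the repeat covers the start base and the 12 bases before it, and no match was found in the window of Slc22a8. RefSeq held a window for 9 of the 10 members, with an additional one for Slc22a22. The core was in 3 of these 10 windows (Slc22a22, Slc22a28 and Slc22a30, of which the last pair are nearly the same sequence) and in 8.47% of all 32851 windows of this length. The repeat was in 6 of the 10 and in 24.6% of all windows. These 6 were those of Slc22a6, Slc22a28, Slc22a30, Slco1a1 and Slco4c1 and the Slc22a22 window without the core. These matches describe letters only.

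All 10 members were lower after puberulic acid. Levels are given as CPM, the usual unit of counts scaled to library size, with library sizes corrected by the trimmed mean of M-values (TMM). Every puberulic acid sample lay below every control sample for each of the 10 genes, as it did for 24.0% of all 16266 genes tested. All 10 were at least 4-fold lower, as were 3.78% of all genes, and 31.1% of all genes were called lower (edgeR, adjusted p under 0.05). These counts follow from the choice of the members on this contrast, and nothing is read from them. Much of the transcriptome differed, with 65.3% of genes called, 5058 lower and 5564 (34.2%) higher. With scaling by total counts 2526 were lower and 9179 higher. The median log2 fold change was −4.85 over the members, with a range from −6.76 to −2.11, against 0.05 over all genes tested, and with scaling by total counts these medians were −4.35 and 0.56. Summed over the 10 genes, controls 1 to 5 held 5121, 5952, 5087, 5291 and 3848 CPM, and puberulic acid samples 1 to 5 held 661, 256, 258, 262 and 306 CPM. The lowest control sum was several times the highest sum after puberulic acid.

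**Figure D1:**
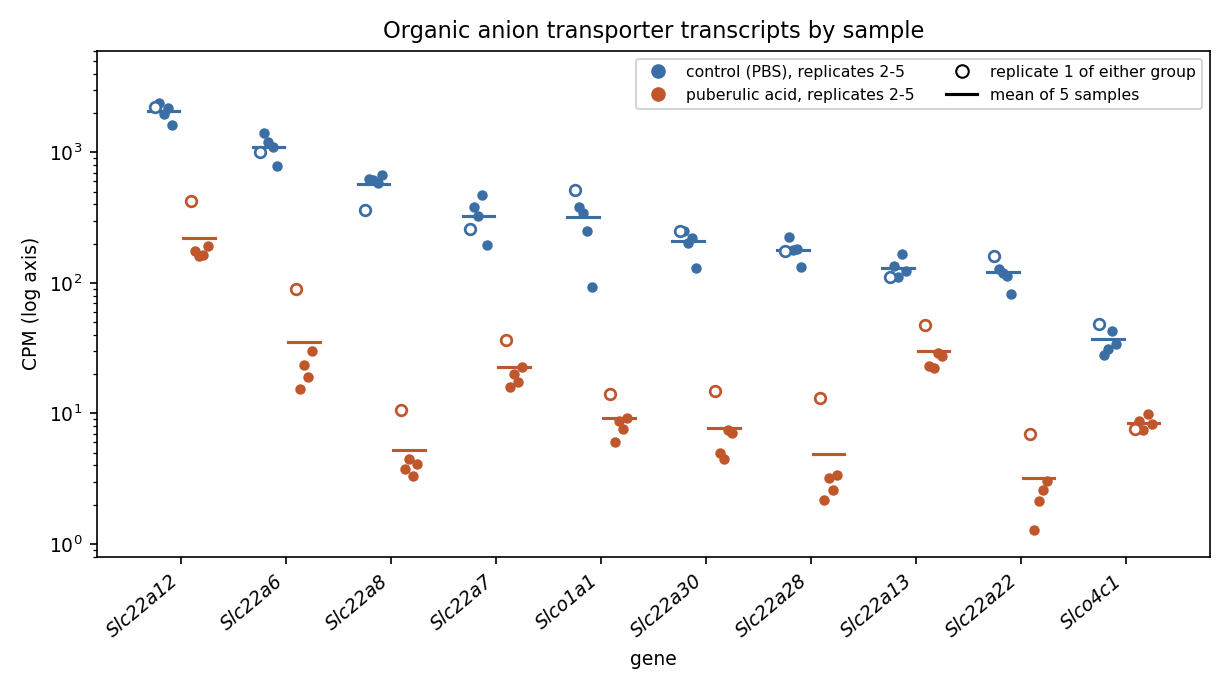
CPM on a log axis for each of the 10 transporter genes, 1 point per sample for control (blue) and puberulic acid (orange), with replicate 1 of either group as an open circle and the mean of 5 samples as a line. No puberulic acid point reaches a control point in any gene, and puberulic acid sample 1 is the highest of its group in 9 of the 10 genes.

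The lowest ratio was that of a blood-side exchanger. Slc22a8 (ENSMUSG00000063796, Oat3), which takes up sulfate conjugates and many drugs, was at 362, 627, 609, 586 and 673 CPM in controls 1 to 5. In puberulic acid samples 1 to 5 it was at 10.6, 3.75, 4.45, 3.34 and 4.11 CPM. Control 1 stood below the other controls, and sample 1 of the treated group stood above the other treated samples. The means were 571 ± 121 and 5.25 ± 3.01 CPM (SD, n = 5), and the log2 fold change was −6.76 ± 0.37 (SE), or 109-fold lower. By log2 fold change this was the second lowest of the 5058 genes called lower.

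Slc22a6 (ENSMUSG00000024650, Oat1), the classical para-aminohippurate exchanger, was the most abundant of the blood-side members per kb of transcript. Its control values were 1004, 1409.7, 1200.1, 1089.9 and 783 CPM. With puberulic acid they were 89.0, 15.4, 23.3, 19.0 and 29.9 CPM. Treated sample 1 held about 4 times the mean of the other treated samples, with a ratio of 4.06, and was still far below every control. The means were 1097 ± 232 and 35.3 ± 30.5 CPM (SD, n = 5), and the log2 fold change was −4.96 ± 0.49 (SE). Without that sample the treated mean was 21.9 CPM and the log2 fold change −5.67.

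Slc22a7 (ENSMUSG00000067144, Oat2), a carrier of smaller anions and nucleotide-like compounds, was at 260.4, 378, 323, 471 and 194 CPM in controls. After puberulic acid it was at 36.7, 15.9, 20.1, 17.4 and 22.8 CPM. The control values spread over a range of 2.42-fold, with control 4 highest and control 5 lowest. The means were 325 ± 107 and 22.6 ± 8.30 CPM (SD, n = 5), and the log2 fold change −3.85 ± 0.29 (SE).

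The urine-side urate and nicotinate exchangers retained more of their level than Slc22a8 and Slc22a6 did. So did the blood-side carrier Slco4c1, at 22.8% of its control mean. Slc22a12 (ENSMUSG00000061742, Urat1), which takes urate back from the urine, was at 2233, 2389, 1967, 2173 and 1606 CPM in controls. It was at 421, 174, 162, 164 and 191 CPM after puberulic acid, so that sample 1 stood apart and the other 4 samples lay close together. The means were 2074 ± 302 and 222 ± 112 CPM (SD, n = 5), with a log2 fold change of −3.22 ± 0.28 (SE), which left 10.7% of the control mean.

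Slc22a13 (ENSMUSG00000074028, Oat10), an exchanger of nicotinate and urate, was at 111, 134, 112, 166 and 122 CPM in controls. It was at 47.3, 23.1, 22.2, 28.9 and 27.7 CPM with puberulic acid. Its log2 fold change of −2.11 ± 0.21 (SE) was the smallest of the 10, and 23.1% of the control mean remained. Of the 31-letter words of its transcript, 41.5% also occur in the pseudogene Slc22a13b-ps, so its counts are uncertain where reads were shared between the loci.

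Slc22a22 (ENSMUSG00000022366, OAT-PG), a prostaglandin carrier, was at 161, 127, 119, 112 and 81.8 CPM in controls. It was at 6.98, 1.28, 2.12, 2.57 and 3.02 CPM after puberulic acid. The log2 fold change was −5.22 ± 0.40 (SE), with means of 120.3 ± 28.6 and 3.19 ± 2.21 CPM (SD, n = 5). Sample 1 again was the highest treated sample, with 3.11 times the mean of the others.

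Slc22a28 and Slc22a30 are rodent genes of the same cluster, with Slc22a29 between them. Slc22a28 (ENSMUSG00000063590) was at 175, 226, 178, 182 and 132 CPM in controls and at 13.1, 2.17, 3.18, 2.61 and 3.37 CPM after puberulic acid. Slc22a30 (ENSMUSG00000052562) was at 249, 249.7, 202, 220.0 and 129 CPM in controls and at 14.8, 4.98, 4.49, 7.42 and 7.07 CPM after puberulic acid. Their log2 fold changes were −5.18 ± 0.49 and −4.75 ± 0.34 (SE). Without treated sample 1 the treated mean of Slc22a28 was 2.83 in place of 4.88 CPM and its log2 fold change was −5.99.

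How the reads were divided between this pair is uncertain. Their coding sequences were 98.4% identical over 1317 aligned bases in GENCODE M21, and 67.0% of the 31-letter words of the Slc22a28 transcript occur in Slc22a30, against 39.4% the other way. Their sum does not depend on that division. It was 388 ± 79.6 CPM in controls and 12.6 ± 8.66 CPM after puberulic acid (SD, n = 5), a ratio of means of 30.7. By comparison, the coding sequences of Slc22a6 and Slc22a8 were 61.8% identical, and 0 and 0.71% of their transcripts' words occur in any other gene.

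The members of the other carrier family, the organic anion transporting polypeptides, differed from each other in ratio. Slco1a1 (ENSMUSG00000041698, Oatp1a1), a carrier of steroid conjugates that is high in male mouse kidney, was at 517, 383, 346, 248 and 92.4 CPM in controls. It was at 14.0, 6.09, 8.77, 7.62 and 9.25 CPM after puberulic acid. The control values spread 5.60-fold, from control 1 down to control 5, the widest control range of the 10 members, and the treated values 2.30-fold. The log2 fold change was −5.11 ± 0.43 (SE), with means of 317 ± 158 and 9.15 ± 2.97 CPM (SD, n = 5).

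Slco4c1 (ENSMUSG00000040693), a blood-side carrier of digoxin and thyroid hormone, was the least abundant member per kb of transcript in controls, at 48.3, 27.9, 31.2, 42.9 and 34.0 CPM. After puberulic acid it was at 7.57, 8.82, 7.50, 9.98 and 8.23 CPM. It was the only member whose highest treated value was not in sample 1, which here was not set apart. The means were 36.9 ± 8.49 and 8.42 ± 1.03 CPM (SD, n = 5), and the log2 fold change was −2.13 ± 0.16 (SE).

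To compare levels between genes, CPM were divided by the length in kb of each gene's longest coding transcript in GENCODE M21. In controls Slc22a12 led with 932 ± 136 CPM per kb (SD, n = 5), ahead of Slc22a6 with 276 ± 58.3. Slc22a8 (166 ± 35.2) and Slc22a7 (164 ± 53.6) came next, and their ranges overlapped. Slc22a28, Slco1a1, Slc22a30, Slc22a13 and Slc22a22 followed with means from 89.0 down to 50.8 CPM per kb, and neighbours in this order overlapped. Slco4c1 was last at 7.52 ± 1.73 CPM per kb, clear of the gene above it.

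After puberulic acid the order was different. Slc22a12 still led, with 99.8 ± 50.1 CPM per kb (SD, n = 5). Slc22a13, at rank 8 in controls, was at rank 2 with 14.9 ± 5.09, followed by Slc22a7 with 11.3 ± 4.17 and Slc22a6 with 8.87 ± 7.65, all overlapping. Slc22a8, at rank 3 in controls, was at rank 9 with 1.52 ± 0.874 CPM per kb. The remaining 5 genes had means from 2.99 to 1.35 CPM per kb, and their ranges overlapped from each gene to the next.

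As a share of the summed CPM per kb of the 10 genes, Slc22a12 took 48.8% ± 1.92 (SD, n = 5) in controls and 67.7% ± 2.27 after puberulic acid. Slc22a6 took 14.3% ± 1.42 and then 5.41% ± 1.74. The share of Slc22a8 was 8.95% ± 2.91 and then 1.02% ± 0.130, and that of Slc22a13 was 3.42% ± 0.665 and then 10.6% ± 1.57. Slc22a7 kept a similar share, with 8.44% ± 2.00 and 7.99% ± 1.08, whose ranges overlapped. Slco4c1 took 0.401% ± 0.104 and then 1.34% ± 0.485. Slc22a22, Slc22a28 and Slc22a30 had lower shares after puberulic acid, with means of 0.867%, 1.45% and 2.01% against 2.66%, 4.64% and 4.19% in controls. The share ranges overlapped between the groups for Slc22a7 and Slco1a1 alone of the 10.

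**Figure D2:**
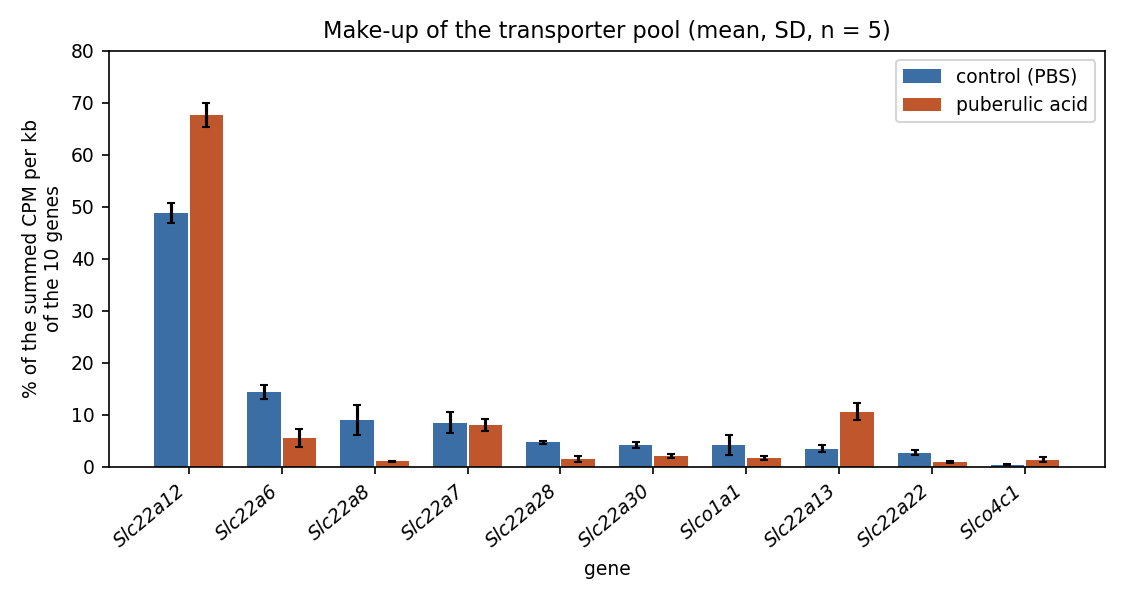
Share of the summed CPM per kb of the 10 transporters held by each gene, in percent, with bars for the mean of 5 samples and error bars for the SD in each group. Slc22a12 goes from 48.8% to 67.7% and Slc22a8 from 8.95% to 1.02%.

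The members shared the samples that stood apart. Puberulic acid sample 1 was highest in 9 of the 10 members, at 1.76 to 4.61 times the mean of the other treated samples in those 9. Control 5 was lowest in 7 of the 10, yet it was the highest control for Slc22a8. The median coefficient of variation over the members was 22.1% in controls and 51.9% after puberulic acid, or 16.8% there without sample 1. Over the 9447 genes with at least 10 CPM in controls, not matched to the members' level after puberulic acid, the medians were 11.7% and 12.1%. The same treated sample had 238 CPM of Hnf4a against 145 to 176 in the others. Its level of Havcr1, the tubular injury marker Kim-1, was 1089 CPM against 1152 to 1343 in the others. Control 5 had 20070.3 CPM of Kap, the androgen-regulated kidney protein, against 30415 to 31268 in the other controls. What sets these samples apart was not tested.

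The genes whose deviations from their group means most resembled the members' mean deviation, over the 10 samples and 9818 other genes with at least 10 CPM, were C1qtnf3 (r = 0.987), Tmem86a (r = 0.980), Pm20d1 (r = 0.978), Fitm1 (r = 0.975) and Pter (r = 0.971). These correlations describe log2(CPM + 1) values that share libraries. They lean on treated sample 1 and control 5, where the members' mean deviations were 0.91 and −0.45 on the log2 scale. Among the members themselves Slc22a22, Slc22a6, Slc22a30, Slc22a12 and Slc22a28 followed the mean most closely, and Slco4c1 did not follow it (r = −0.149).

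Members Slc22a28, Slc22a30, Slc22a8 and Slc22a6 form a run on chromosome 19 with other genes of the family (gene order from RefSeq on GRCm38.p6). The tested family members in that run that are not among the 10 fell too. Slc22a19 went from 154 ± 21.7 to 12.0 ± 4.71 CPM (SD, n = 5), and the log2 fold change was −3.69 ± 0.23 (SE, edgeR adjusted p = 1.17e-07). Slc22a26 went from 34.8 ± 12.2 to 1.13 ± 1.06 CPM, a log2 fold change of −4.92 ± 0.48 (edgeR adjusted p = 3.24e-06). Without treated sample 1, at 2.97 CPM, Slc22a26 was at −5.68. Slc22a29, at 3.51 CPM in controls, fell by a smaller ratio, with −2.53 ± 0.70 on the log2 scale (edgeR adjusted p = 0.00733) and overlapping groups. Over the alternatives its log2 fold change ran from −3.75 to −2.04. Its treated sample 1, at 1.93 CPM, was above the lowest control at 1.87 CPM, and the other treated samples were at or below 0.530 CPM. Slc22a27, under 1 CPM in both groups on average, was not tested. These genes resemble each other in sequence, and how reads were divided between them was not measured.

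Beyond Slc22a6 in gene order lie Chrm1, a muscarinic receptor that was too low to test, and then Slc3a2, the heavy chain of amino acid exchangers. Slc3a2 had 176 CPM in controls and 155 CPM after puberulic acid, a log2 fold change of −0.18 ± 0.21 (SE, edgeR adjusted p = 0.464). Wdr74, a ribosome assembly factor, rose by 0.39 ± 0.10 on the log2 scale (edgeR adjusted p = 0.00420). The difference between the cluster and its neighbours was not tested.

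**Figure D3:**
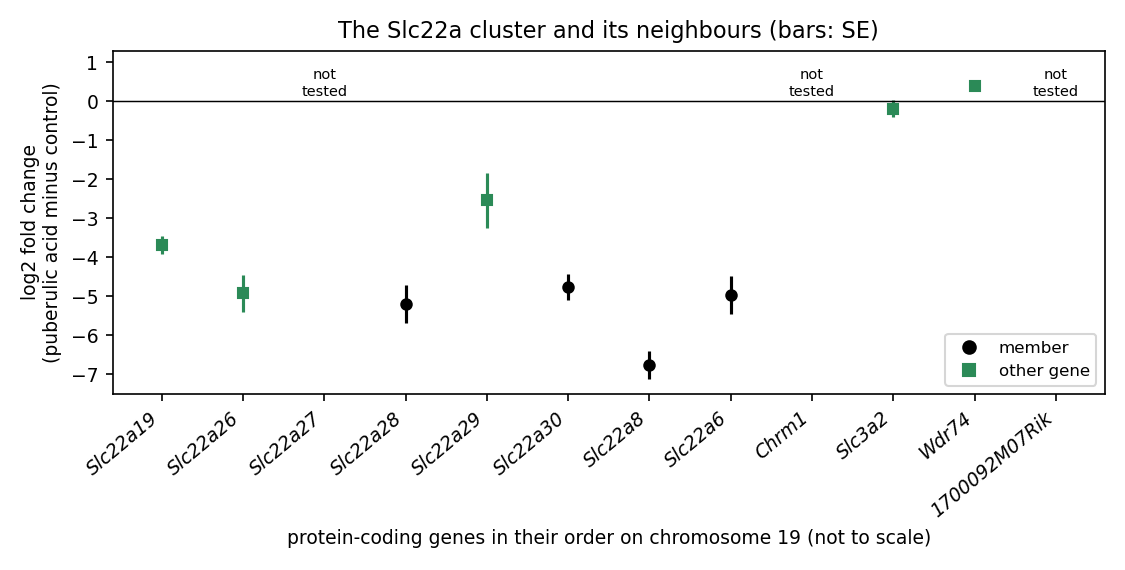
Log2 fold changes with standard error bars for the genes around the Slc22a cluster in their order on chromosome 19, not to scale, with the transporter members as circles and other genes as squares. The family genes lie between −6.76 and −2.53, Slc3a2 and Wdr74 lie at −0.18 and 0.39, and 3 of the genes drawn were not tested.

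Of the 16 remaining organic anion carriers of both families on a list, 11 passed the filter on low counts, and of these 7 fell, 3 rose and 1 was not called. Slco1a6, a close relative of Slco1a1, fell from 213 ± 33.8 to 27.7 ± 7.40 CPM (SD, n = 5), with −2.94 ± 0.18 (SE) on the log2 scale (edgeR adjusted p = 1.08e-07). The genes that rose were Slco2a1, the prostaglandin uptake carrier, with a log2 fold change of 1.14 ± 0.12, Slco4a1 with 0.48 ± 0.17 and Slco5a1. The groups of Slco4a1 overlapped, and its call was lost under 1 or more alternatives (highest adjusted p = 0.0805 over edgeR and DESeq2). Slco2a1 and Slco4a1 were picked out after their values were seen. Slco5a1 had 0 counts in every control and a mean of 1.47 CPM after puberulic acid, at least 8.16-fold higher against a floor of 3 counts per control library. The list's median log2 fold change was −1.13. Over all genes tested 31.1% were called lower and 34.2% higher, which is the background for this and the following lists.

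Of 11 cation, carnitine and orphan carriers of the Slc22 family 9 were tested, and of these 7 fell and 1 rose, with a median log2 fold change of −1.68. Slc22a18 (−2.96 ± 0.21), Slc22a2 (Oct2, −2.56 ± 0.13) and Slc22a5 (the carnitine carrier Octn2, −2.52 ± 0.17) had the largest falls among them (log2 fold change, SE, edgeR adjusted p = 2.82e-07, 3.09e-08 and 2.25e-07). Slc22a2 was at 383, 483, 465, 460.1 and 377 CPM in controls and 96.2, 69.6, 63.1, 72.8 and 65.7 CPM after puberulic acid, without overlap. Slc22a15 rose, with 2.40 ± 0.20, and was picked out after its values were seen. Slc22a21, also picked out afterwards, was not called, but with scaling by total counts it was called higher, at 1.02.

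Partners that drive and complete anion secretion were taken from lists. A list of 10 further partners comprises dicarboxylate and sulfate carriers, the sodium pump and Abcc pumps. Most are known from the basolateral side, while Slc13a2 and Slc13a1 are brush-border carriers. Of the 10, 6 fell, 2 rose and 2 were not called (median log2 fold change −0.68), and with scaling by total counts 4 fell and 3 rose. Slc13a3 (NaDC3), which loads the cell with the dicarboxylate that Slc22a6 and Slc22a8 exchange, was at 759.9, 1119.7, 849.7, 979 and 862 CPM in controls and 157, 101, 102, 92.0 and 112 CPM after puberulic acid. Its log2 fold change was −3.02 ± 0.17 (SE, edgeR adjusted p = 4.38e-08), and the groups were far apart. The sulfate exchanger Slc26a1 (−2.52 ± 0.47, edgeR adjusted p = 0.000481) and Abcc6 (−3.20 ± 0.47, edgeR adjusted p = 8.52e-05) fell as well. Without treated sample 1 Slc26a1 was at −3.34, and without treated sample 5 Abcc6 was at −3.85.

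Abcc3, an export pump for conjugates, went the other way. It was at 0.970, 1.32, 1.97, 1.12 and 1.43 CPM in controls and 7.57, 38.2, 29.5, 25.1 and 24.1 CPM after puberulic acid, where sample 1, the highest in most members, was the lowest. The log2 fold change was 4.19 ± 0.40 (SE, edgeR adjusted p = 2.55e-06). The second gene that rose was Abcc1, picked out after its values were seen. Abcc5 (0.09 ± 0.16, edgeR adjusted p = 0.624) and the sulfate carrier Slc13a1 (−0.63 ± 0.36, edgeR adjusted p = 0.146) were not called, and without treated sample 1 Slc13a1 was called lower at −1.14, while without control 5 it was at −0.39 and not called. With scaling by total counts Abcc5 was called higher, at 0.60.

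Of 11 apical exit and urate or lactate carriers, 10 were tested, 7 fell, 1 rose and 2 were not called (median log2 fold change −1.45). The monocarboxylate carriers Slc16a9 (−2.83 ± 0.25), Slc5a12 (−2.64 ± 0.60) and Slc5a8 (−2.17 ± 0.18) and the phosphate and urate carrier Slc17a3 (−2.11 ± 0.18) had the largest falls, with edgeR adjusted p of 1.33e-06, 0.00199, 9.16e-07 and 1.29e-06. Without treated sample 1, at 51.1 CPM against 3.79 to 11.2 CPM in the others, Slc5a12 was at −3.72. The export pump Abcc4 (Mrp4) rose from 38.5 ± 9.22 to 69.7 ± 11.9 CPM (SD, n = 5; log2 fold change 0.86 ± 0.16, edgeR adjusted p = 0.000613), and was picked out after its values were seen. Abcc2 (Mrp2) was at 287 ± 23.8 and 243 ± 29.1 CPM, a log2 fold change of −0.24 ± 0.10 that missed the threshold (edgeR adjusted p = 0.052) with TMM scaling. It was called lower with DESeq2 and with RLE size factors (−0.25 in both), with the replicate block (−0.24), and without control 5 or treated sample 1, 2 or 4. With scaling by total counts it was called higher, at 0.27.

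All 4 scaffold genes fell (median log2 fold change −1.45), and 3 with scaling by total counts. Pdzk1, whose protein anchors Urat1 and other carriers at the brush border, was at 1242, 1507, 1313, 1225 and 1207 CPM in controls and 332, 159, 172, 189 and 208 CPM after puberulic acid. It fell by 2.61 ± 0.19 (SE) on the log2 scale (edgeR adjusted p = 3.37e-07), without overlap. Slc9a3r1 (NHERF1) fell by 1.13 ± 0.08 and Pdzk1ip1 fell by 1.77 ± 0.14 (edgeR adjusted p = 1.89e-07 and 6.11e-07). Slc9a3r2 (NHERF2) had overlapping groups and a log2 fold change of −0.72 ± 0.19 (edgeR adjusted p = 0.00546), and its call was lost with scaling by total counts, at −0.21.

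Of 20 regulators known for these genes, 18 were tested, 13 fell, 1 rose and 4 were not called (median log2 fold change −1.12), and with scaling by total counts 10 fell and 2 rose. Hnf4a was at 650.5, 744, 664, 741 and 726 CPM in controls and 238, 147, 145, 145 and 176 CPM after puberulic acid, a log2 fold change of −2.05 ± 0.14 (SE, edgeR adjusted p = 2.47e-07). Treated sample 1 was again the highest of its group, and the groups did not overlap. Esr1, the oestrogen receptor (−1.95 ± 0.23, edgeR adjusted p = 1.28e-05), and Nr1h4, the bile acid receptor FXR (−1.93 ± 0.18, edgeR adjusted p = 2.56e-06), fell to a like extent.

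Bcl6, Cebpa, Stat5a and the prolactin receptor Prlr were not called. Bcl6, a repressor known for sex-dependent expression of carriers, spread from 19.3 to 94.2 CPM in controls and only from 23.1 to 25.2 CPM after puberulic acid (log2 fold change −0.77 ± 0.37, edgeR adjusted p = 0.0846). It was called lower without control 4 or without control 5 (log2 fold change −0.95 and −0.96) and with DESeq2 (−0.78), while without control 2, the highest, the value was −0.22 and not called. Prlr was highest in control 5 at 55.5 CPM and in treated sample 1 at 47.4 CPM, and was called lower without the latter, with −1.55 (log2 fold change −0.57 ± 0.63 with it, edgeR adjusted p = 0.448). Without control 5 the log2 fold change of Prlr was −0.0076. Cebpa was called lower without control 1 or treated sample 3, and was at 0.30 with scaling by total counts, where Stat5a was called higher at 0.38. The regulator that rose was Cebpb, picked out after its values were seen.

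**Figure D4:**
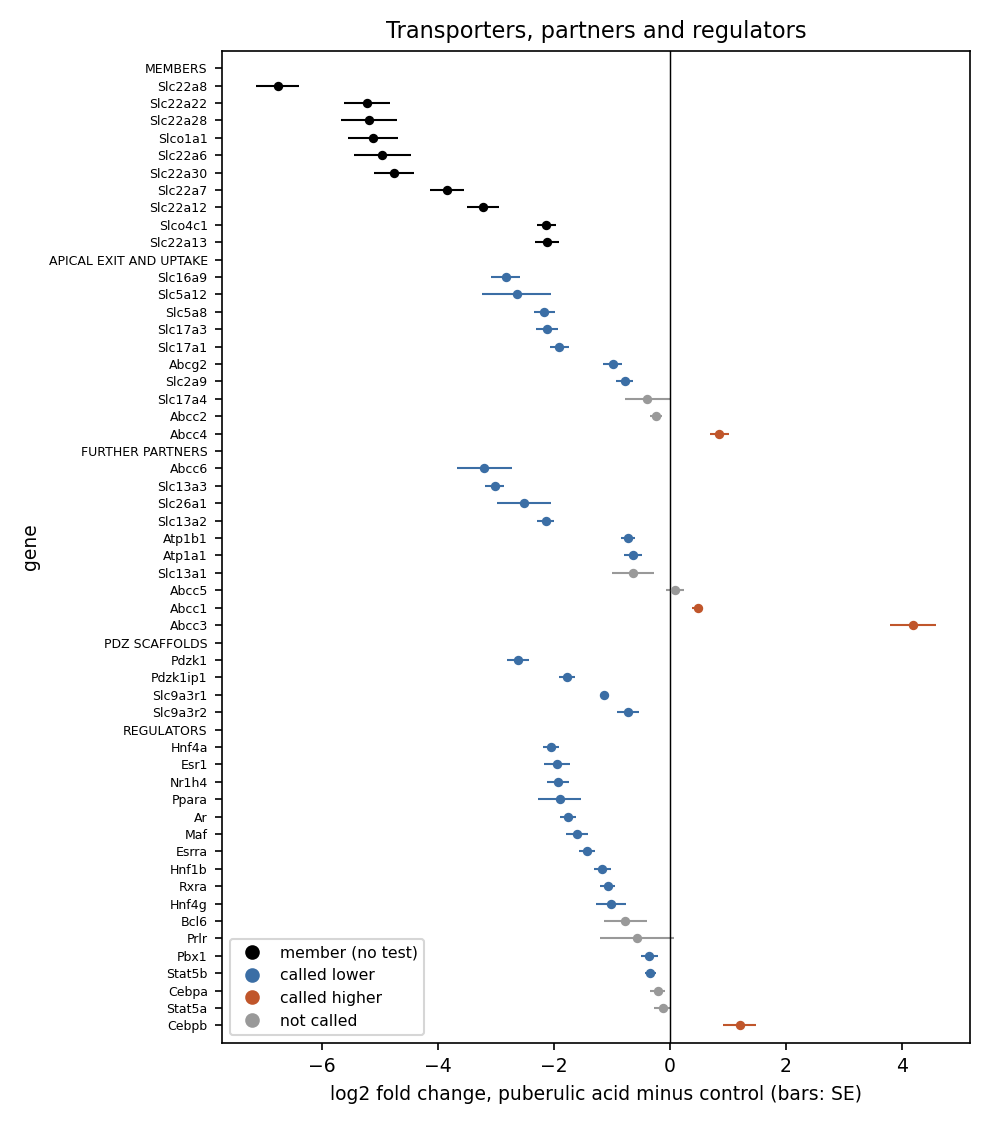
Log2 fold change of puberulic acid against control with standard error bars, for the 10 transporter genes (black, no test) and the tested genes of the apical, partner, scaffold and regulator genes reported here, coloured by whether they were called lower, called higher or not called. The transporters run from −6.76 for Slc22a8 to −2.11 for Slc22a13, and Abcc3 is at 4.19.

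**Figure D5:**
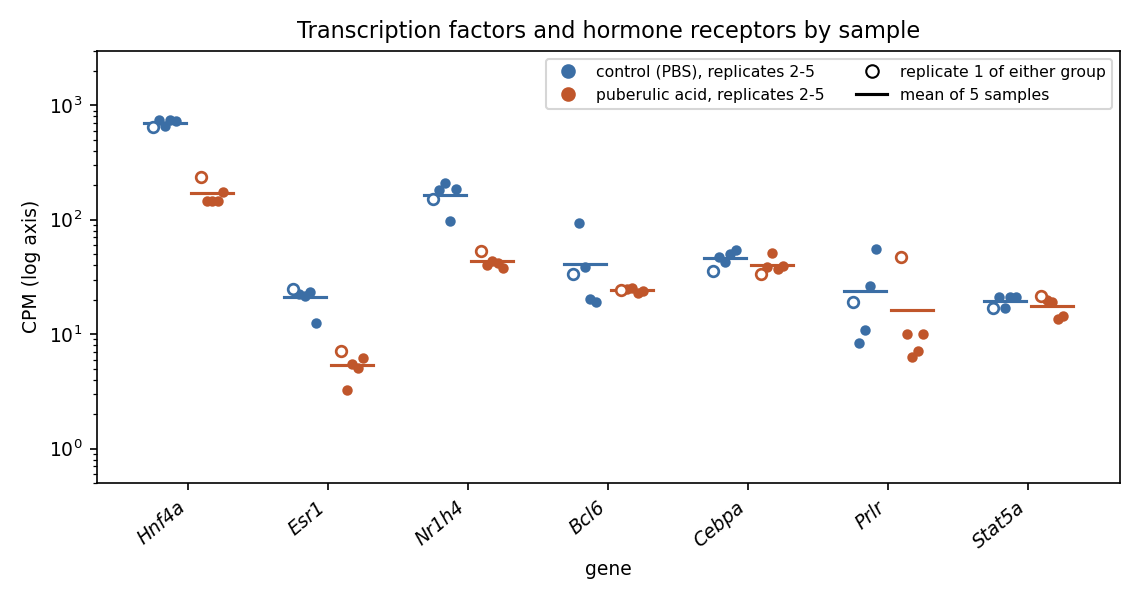
CPM on a log axis of 7 transcription factors and hormone receptors, of which 3 fell and 4 were not called, 1 point per sample, for control and puberulic acid samples, with replicate 1 as an open circle and lines for means. Hnf4a lies at 145 to 238 CPM after puberulic acid, below all its control values.

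Cell type markers were measured beside the transporters. Of 18 further proximal tubule genes 17 fell, with a median log2 fold change of −2.96, and their summed level was 44847 to 57714 CPM in controls and 7264 to 10178 CPM after puberulic acid. The phosphate carrier Slc34a1 (−5.36 ± 0.55, edgeR adjusted p = 4.86e-06) and the myo-inositol oxygenase Miox (−5.35 ± 0.39, edgeR adjusted p = 3.05e-07) fell the most. Without treated sample 1, at 319 CPM against 51.2 to 85.4 CPM in the others, Slc34a1 was at −6.20. The glucose carrier Slc5a1 was not called, at 80.8 ± 11.0 and 79.6 ± 5.23 CPM (log2 fold change −0.02 ± 0.10, edgeR adjusted p = 0.858). With scaling by total counts Slc5a1 was called higher, at 0.49.

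Of 8 thick limb and distal genes 6 fell and 1 rose, with summed levels of 4467 to 6313 CPM in controls and 3410.3 to 6822 CPM after puberulic acid, and with scaling by total counts 2 fell and 2 rose. Of 8 collecting duct genes 7 fell (559.5 to 766 and 234 to 413 CPM), and 4 with that scaling. Of 6 podocyte genes 1 fell (239.9 to 515 and 116 to 464 CPM) and of 6 endothelial genes 2 fell (184 to 300.4 and 91.8 to 244 CPM), and none of either with that scaling.

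Genes of fibroblasts, leukocytes and injured tubule were higher. Of 6 fibroblast genes 5 rose (128 to 191 and 587 to 2187 CPM), of 5 tested of 8 leukocyte genes 3 rose (21.4 to 52.0 and 84.3 to 248 CPM), and all 6 injury genes rose (759.9 to 1371 and 14291 to 24328 CPM). Some of the members are also known from liver. Of 6 hepatocyte genes, Cyp3a11 and Cyp2c29 had at most 4 counts in any library. Of the other 4, Alb, Apoa2 and Ttr fell and Serpina1a rose. Alb was at 5.30 CPM in controls and 3.52 CPM after puberulic acid, and Apoa2 at 4.14 and 1.58 CPM. Ttr was at 115 and 17.5 CPM, and Serpina1a at 54.6 and 92.1 CPM. The part of these cell types in the lower transporter levels was not tested.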

How the data were processed

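Poly(A) RNA of whole mouse kidney was sequenced from strand-specific libraries, per the labels' protocols. The authors deposited 1 table of estimated counts, with a row for each gene, whose values need not be whole. The submitters' processing notes name fastp 0.22.0, FastQC 0.12.1, MultiQC 1.28, Salmon 1.10.3, DESeq2 and build GRCm39, with no role or order. Columns were matched to samples by name, and 10 further sample columns, whose names do not show the lot, were not used. A symbol was found for 51344 of 55822 identifiers, with 99.3% of the counts.

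Estimated counts were rounded. The model was fitted to the 10 samples used, with filterByExpr, TMM factors and edgeR's quasi-likelihood test (R 4.3.3, edgeR 4.0.16, limma 3.58.1). Benjamini-Hochberg adjustment covered 16266 genes, and an adjusted p-value under 0.05 was called. Standard errors are the size of the log2 fold change over the square root of F. The script was tested on simulated data. The floor of 3 counts corresponds to 0.0964 to 0.195 CPM and covers counting error only.

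The transporter genes and all gene lists were chosen with earlier results of these data known. Named from each pathway list were the 4 called genes with the largest absolute log2 fold change and the genes not called that had at least 5 CPM in either group. Genes named outside this rule were picked out after their values were seen. Counts over lists, and the ranking by size behind this rule, include 2 genes that are not reported here. Marker lists are given mainly by their counts, and the genes around the chromosome 19 cluster by position. Sequences and gene order come from RefSeq on GRCm38.p6 and transcript lengths from GENCODE M21, and no coordinate was taken from the files. Samples with the same replicate number did not deviate together. Alternatives were size factors of the median-of-ratios kind (RLE), DESeq2 1.42.0, scaling by total counts, keeping all genes, keeping genes with 1 CPM in 5 or more samples, a block for the replicate number, and fits without each sample in turn.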

Additional observations from a re-analysis of the deposited data

Results flagged for a closer look

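A group of 5 samples was marked where its highest or lowest sample stood apart, with a gap to the nearest sample above 0.71 of the group's whole range (Dixon's critical value). Of the 148 groups searched 34 were marked, and of the 20 groups of the transporter genes 7. Chance marks about 1 in 20 independent groups, but these groups share samples, and some genes were chosen because they follow the transporters from sample to sample, so the number of marks is not set against chance.

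Puberulic acid sample 1 was the high one for 6 of these transporters. The share of the range was 0.803 for Slc22a6, 0.847 for Slc22a8, 0.889 for Slc22a12, 0.735 for Slc22a13, 0.890 for Slc22a28 and 0.717 for Slc22a30. Control 1 was the low one for Slc22a8, with 0.718.

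The same treated sample was the high one for other carriers, with 0.761 for Slc22a18, 0.724 for Slc22a5, 0.751 for Slc22a26, 0.813 for Slc26a1, 0.842 for Slc5a12, 0.719 for Slc13a1, 0.872 for Slc34a1, 0.831 for Slc5a2 and 0.728 for Slc7a13. It was also high for the proximal tubule enzyme Miox (0.937), the scaffold Pdzk1 (0.720), the receptor Prlr (0.911) and the distal genes Pvalb (0.924), Calb1 (0.837) and Slc12a1 (0.713). Of the genes most like the transporters it was high for C1qtnf3 (0.851), Fitm1 (0.718) and Tmem86a (0.712).

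Control 5 was the low one for C1qtnf3 (0.885), Fitm1 (0.873), Tmem86a (0.811), Slc7a13 (0.736) and Esr1 (0.729), and the high one for Slc13a1 (0.884) and Spp1 (0.786). Control 2 was the high one for Bcl6 (0.737) and Slc22a26 (0.788).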

How the results depend on the processing

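The transporters' median log2 fold change was −4.35 with scaling by total counts and −5.25 to −4.71 without 1 sample. That scaling gave 9179 genes higher and 2526 lower. It called 2 cation carriers, 2 apical carriers, 2 regulators and 1 proximal tubule gene higher. It called 2 thick limb or distal genes lower and 2 higher, 4 collecting duct genes lower, 0 podocyte genes lower and 1 higher, and 0 endothelial genes lower. It called 10 regulators, 4 of the 10 further partners and 3 scaffold genes lower. With no filter on low counts 2 apical carriers, 2 regulators and 0 thick limb or distal genes were higher, and with RLE size factors 0 thick limb or distal genes. Without 1 sample the number called higher was 1 to 2 for cation carriers, 1 to 2 for apical carriers, 0 to 1 for thick limb or distal genes and 0 to 1 for hepatocyte genes, 2 to 3 for other organic anion carriers and 3 to 4 for leukocyte genes, and the number called lower was 0 to 1 for podocyte genes, 2 to 3 for endothelial genes and 2 to 3 for hepatocyte genes. Signs turned with scaling by total counts for Abcc2 (0.27), Cebpa (0.30) and Stat5a (0.38), and for Abcc5 without control 1, where leaving out 1 sample gave −0.024 to 0.17. The cause of these changes was not tested.

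Deviations of samples with the same replicate number correlated by −0.17 to 0.04. No shared deviation was seen, but this cannot exclude that the numbers pair the samples. With the replicate block 0 thick limb or distal and 0 hepatocyte genes were called higher.

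Depth limits the genes under about 1 CPM. The labels of 10 libraries could not be tied to columns, and a single treated sample carries much of the spread of the transporters.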

Other observations

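Within the treated group the injury marker Lcn2 was lowest in sample 1, the sample with the most transporter RNA, at 108 CPM against 265 to 840.5 CPM in samples 2 to 5. In control 5, the sample with the least transporter RNA among controls, the amino acid carrier Slc7a13 of the late proximal tubule was at 671 CPM against 1022 to 1148 CPM in controls 1 to 4. The same control held 684 CPM of the sulfate carrier Slc13a1 against 329 to 370 CPM in the others. These values were picked out after the data were seen and were not tested.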
